A study of Mus musculus with 7 samples.

Results

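The mouse genes numbered Zfp500 to Zfp999 are mostly genes for zinc finger proteins, and their H3K27me3 was followed in spermatocytes from postnatal day 12 (P12) to day 17 (P17). Members were all symbols of this number range, without a letter suffix, that occurred once in the gene-body read counts of both stages. The rule found 172 genes of 23220 symbols present once. Spermatocytes came from wild-type CD1 mouse testes, which were dissociated and fractionated on Percoll, and the chromatin was precipitated with 1 H3K27me3 antibody. The P12 file holds 1 replicate and the P17 file pools 2 replicates, per the labels, so each stage is 1 set of counts, with 13462873 and 26664736 reads. Peak lists for H3K4me3, EED and H3K27me3 carry mm9 positions without gene names, and were not used here.

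H3K27me3 is the repressive histone mark written by Polycomb repressive complex 2, and it usually lies at CpG-rich promoters of silenced developmental genes. Most zinc finger proteins of this number range bind DNA through arrays of C2H2 fingers. Many also carry a KRAB domain, which recruits TRIM28 and the H3K9 methyltransferase SETDB1 to silence retroelements and selected loci. KRAB zinc finger genes sit in clusters that arose by duplication, and these clusters are known more for H3K9me3 than for H3K27me3.

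Promoters of 4 members, from both ends of the P17 to P12 comparison, are shown to compare their CpG content. CpG dinucleotides are in capitals, and each sequence is the 250 bases before the annotated start, 5′ to 3′ on the gene's strand, from RefSeq with the build GRCm38.p6. Zfp619 and Zfp791 were among the 3 members with the highest ratio, and Zfp709 and Zfp600 were among the lowest. The positions are chr7:39517516-39517765 (plus strand) for Zfp619, chr8:85119692-85119941 (minus) for Zfp791, chr8:71881818-71882067 (plus) for Zfp709 and chr4:146156577-146156826 (plus) for Zfp600. Zfp791 and Zfp600 have 2 annotated windows each, of which the window with more CpG is given.
Zfp619: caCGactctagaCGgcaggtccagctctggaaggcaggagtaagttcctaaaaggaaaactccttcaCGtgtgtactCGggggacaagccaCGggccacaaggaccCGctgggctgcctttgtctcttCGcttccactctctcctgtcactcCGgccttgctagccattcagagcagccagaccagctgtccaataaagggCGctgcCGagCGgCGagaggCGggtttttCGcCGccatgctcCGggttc
Zfp791: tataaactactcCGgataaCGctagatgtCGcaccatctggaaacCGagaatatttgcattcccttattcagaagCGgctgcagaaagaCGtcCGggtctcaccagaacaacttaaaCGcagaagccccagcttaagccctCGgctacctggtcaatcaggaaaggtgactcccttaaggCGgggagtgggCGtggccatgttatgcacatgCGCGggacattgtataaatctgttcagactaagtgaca
Zfp709: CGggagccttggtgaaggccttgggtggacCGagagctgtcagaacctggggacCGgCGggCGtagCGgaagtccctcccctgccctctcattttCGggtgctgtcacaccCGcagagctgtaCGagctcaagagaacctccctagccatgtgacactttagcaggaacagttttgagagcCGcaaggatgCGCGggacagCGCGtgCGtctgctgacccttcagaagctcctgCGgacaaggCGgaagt
Zfp600: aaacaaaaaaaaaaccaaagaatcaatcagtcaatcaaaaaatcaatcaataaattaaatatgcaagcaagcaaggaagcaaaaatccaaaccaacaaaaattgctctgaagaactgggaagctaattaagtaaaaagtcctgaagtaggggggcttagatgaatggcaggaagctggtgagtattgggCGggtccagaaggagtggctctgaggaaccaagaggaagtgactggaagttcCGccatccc
The sequences hold 16 CpG for Zfp619, 13 for Zfp791, 17 for Zfp709 and 2 for Zfp600. A high and a low ratio thus occurred above promoters of similar CpG number.

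The zinc finger genes followed the library. Counts were scaled to the total reads of each file (CPM, counts per 1000000 reads), and 1 read was added as a pseudocount before the log2 ratio of P17 to P12 was taken. All 172 members had at least 20 reads over both libraries, the minimum applied to every gene. Their median log2 ratio was -0.09, against -0.08 over all 21808 genes with that many reads. The 10th to 90th percentile range was -0.31 to 0.41 for the members and -0.34 to 0.47 for all genes. Together the members held 0.348% of the P12 reads and 0.359% of the P17 reads. Each ratio has an exact conditional 95% interval that covers counting error only. With 1 file a stage there is no replicate check and no p-value. In bulk chromatin, a smaller share of cells with the mark and less of the mark per cell cannot be told apart. Input libraries of both stages belong to the series and were not analysed here, so stage and enrichment of the precipitation cannot be told apart in these values. Read counts of a histone mark do not measure RNA, so cell identity was not checked against markers.

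Few members differed by much between the libraries. Genes with a difference of more than 2-fold, and with an interval that left out a ratio of 1, were counted first. By this rule 3 members were higher at P17, where 2.57% of all genes were, and 1 was lower, where 0.335% of all genes were. As shares of the members these are 1.74% and 0.581%, near the background. A second count asked whether a gene's interval lay wholly above or below the median ratio of all genes, called the median gene here. It placed 28 members above (16.3%, against 21.2% of all genes) and 13 below (7.56%, against 10.1% of all genes). The intervals of the remaining 131 spanned the median gene. The median gene has a log2 ratio of -0.08, so an interval counted as above can still include a ratio of 1. Members had fewer reads than genes at large, with a median of 135.5 reads at P12 against 203, and wider intervals, with a median width of 0.63 log2 units against 0.50. The part of depth in the lower share of calls was not tested.

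**Figure D1:**
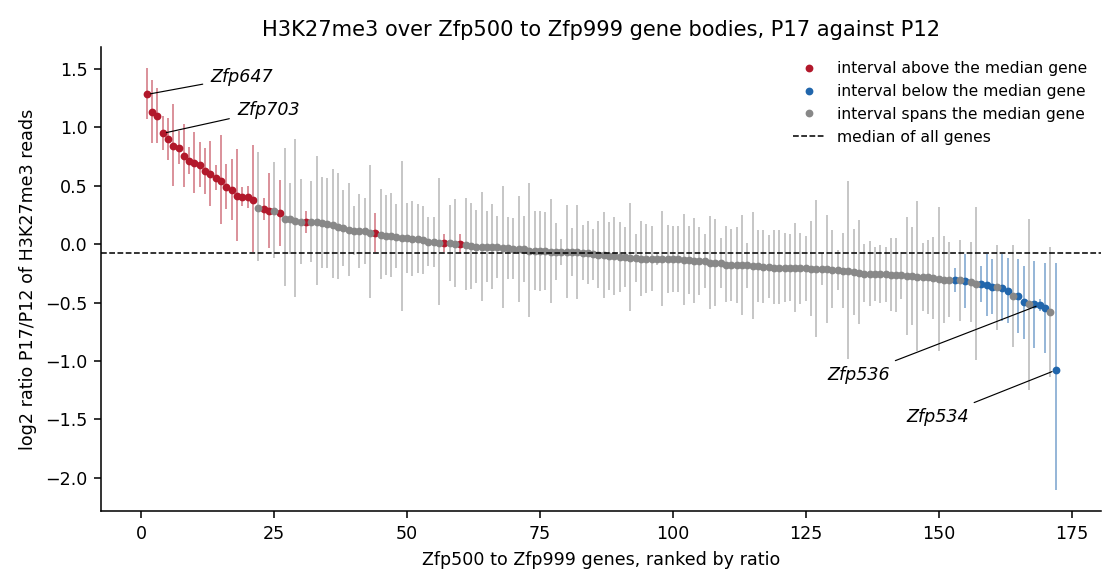
Log2 ratio P17/P12 of H3K27me3 reads (vertical axis) for the 172 Zfp500 to Zfp999 genes, ranked from highest to lowest. Points are genes, vertical lines are 95% counting intervals and the dashed line is the median of all genes at -0.08; 28 genes lie above it with their whole interval and 13 below.

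The 3 members over 2-fold higher were Zfp647, Zfp791 and Zfp619. Zfp647, a zinc finger gene on chromosome 15, had 212 reads at P12 and 1023 at P17, or 15.7 and 38.4 CPM. Its log2 ratio was 1.28 (95% interval 1.07 to 1.50), the highest of all members. Zfp791 went from 142 to 617 reads, or 10.5 to 23.1 CPM, a log2 ratio of 1.13 (0.87 to 1.41). Zfp619 went from 183 to 776 reads, or 13.6 to 29.1 CPM, a log2 ratio of 1.10 (0.86 to 1.34). The lower bounds of Zfp791 and Zfp619 lie under 2-fold, so at this depth only the interval of Zfp647 lies wholly above 2-fold. Below them came Zfp703 at 0.95, which passes 2-fold with TMM factors (1.02), Zfp579 at 0.90, Zfp872 at 0.84, Zfp697 at 0.82 and Zfp641 at 0.75. Zfp872 rested on 87 and 309 reads, and the others on 148 or more at P12. All 8 genes had intervals above the median gene.

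The genes next to these 8 had a median ratio closer to that of all genes. The nearest measured protein-coding neighbour on each side, in the gene order of GRCm38, gave 16 neighbours with a median log2 ratio of 0.02. Of these, 5 had intervals above the median gene and 3 below, where 21.2% and 10.1% of all genes did. Beside Zfp647 stood Rpl8, a ribosomal protein gene, at 0.01, and 1110038F14Rik at -1.41 on 28 and 20 reads. Beside Zfp619 stood Zfp939 at 0.26 and Vstm2b at 0.04. The neighbours of Zfp703 were Thap1 at 0.55 and Erlin2 at -0.16. The highest neighbour was the olfactory receptor gene Olfr371, beside Zfp791, at 0.91 on 11 and 42 reads. Since the 8 members were picked for their ratios, a lower ratio at their neighbours is partly built into the choice.

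At the other end, Zfp534 had the lowest log2 ratio, -1.08 (-2.11 to -0.16), on 21 and 19 reads. It is the 1 member over 2-fold lower, it was singled out after its value was seen, and with at least 100 reads required or a pseudocount of 5 it drops from the count. Among members with at least 50 reads the lowest were Zfp768 at -0.58, Zfp709 at -0.54, Zfp536 at -0.52, Zfp600 and Zfp688 at -0.51, and Zfp951 at -0.50. Zfp958 and Zfp707 followed at -0.44. Reads were few for Zfp768 (50 and 66) and Zfp688 (29 and 40), and the intervals of both, like that of Zfp707, reach the median gene. Zfp709 had 101 and 137 reads, or 7.50 and 5.14 CPM, with an interval of -0.93 to -0.16. Zfp600 had 107 and 148 reads, or 7.95 and 5.55 CPM, with an interval of -0.89 to -0.15. Both intervals lie below the median gene, as do those of Zfp951 and Zfp958. The 16 neighbours of these 8 genes had a median of -0.04. Of these neighbours 4 were above and 1 below the median gene, where 21.2% and 10.1% of all genes were. E430018J23Rik, next to Zfp688, stood at 1.22 on 80 and 371 reads, the highest of them.

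Developmental and tissue regulators of the number range, a list of 7 genes of which 6 were measured, went in both directions. Zfp703, a co-repressor of the same small family as Zfp503, had 498 and 1905 reads, or 37.0 and 71.4 CPM (log2 ratio 0.95, interval 0.81 to 1.09). Zfp503, a regulator of striatal and limb development, had 1222 and 3199 reads, or 90.8 and 120 CPM (0.40, interval 0.31 to 0.50). Zfp516, a regulator of brown fat, had 1021 and 3004 reads, or 75.8 and 113 CPM (0.57, interval 0.47 to 0.67). All 3 lie above the median gene.

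The neural gene Zfp536, a negative regulator of neuronal differentiation, went the other way with 4872 reads at P12 and 6734 at P17. Scaled, this is 362 and 253 CPM, a log2 ratio of -0.52 (-0.57 to -0.47), well below the median gene. Of the 8 lowest members it had the most reads. Zfp521, a factor of blood and neural progenitors, had 4408 and 8009 reads, or 327 and 300 CPM (-0.12, interval -0.18 to -0.07), and its interval includes the median gene. Zfp750, a regulator of skin differentiation, had 93 and 160 reads (-0.20, interval -0.58 to 0.18). Its annotated span overlaps that of Tbcd in GRCm38, and reads of overlapping genes cannot be told apart. The same limit holds for other genes named here whose spans overlap annotated genes, among them Zfp516, Zfp536, Zfp593, Zfp597 (with Zfp174 and Naa60), Zfp600, Zfp704, Zfp708 (with Rslcan18), Zfp809 (with Zfp599) and Zfp956. The list's median was 0.14, with 3 genes above and 1 below the median gene, where 21.2% and 10.1% of all genes were. Apart from Zfp750, the measured genes of the list had a mean of both stages of at least 50 CPM. Intervals are narrower at that depth, and of all genes at that level 38.2% were above and 18.8% below. The part of depth in the list's counts was not tested.

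KRAB zinc finger genes known for silencing retroelements or single loci mostly had intervals that spanned the median gene. Of 7 listed, 6 were measured, with a median log2 ratio of -0.18. The shares over all genes, 21.2% above and 10.1% below, amount to few genes in a list of 6. Here 0 lay above and 1 below the median gene. The gene below was Zfp600, which belongs to a cluster of closely related copies on chromosome 4. Zfp568, which represses a placental Igf2 transcript, had 356 and 622 reads, or 26.4 and 23.3 CPM (-0.18, interval -0.37 to 0.01). Zfp809, which silences murine leukaemia proviruses, had 126 and 221 reads, or 9.36 and 8.29 CPM (-0.17, interval -0.50 to 0.15). Zfp708, which acts on a family of retroviral repeats, had 180 and 312 reads (-0.19), Zfp932 had 60 and 117 reads (-0.02), and Zfp819 had 131 and 301 reads (0.21, interval -0.09 to 0.52). For these 5 genes a difference from the median gene was not detectable at this depth.

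Members with single known roles gave small ratios. Zfp541, which acts in a histone deacetylase complex of pachytene spermatocytes, had 448 and 761 reads, or 33.3 and 28.5 CPM (-0.22, interval -0.39 to -0.05). That interval lies under a ratio of 1 but includes the median gene. Zfp598, a ubiquitin ligase for collided ribosomes, stood at 0.07. The ribosome maturation genes Zfp622 and Zfp593 stood at -0.26 and 0.20, the latter on 28 and 64 reads. Zfp597, listed here as imprinted, had 101 and 162 reads (-0.30, interval -0.67 to 0.07). Zfp711, the 1 member on the X chromosome, had 112 and 213 reads (-0.06, interval -0.40 to 0.28). None of these 6 intervals excludes the median gene.

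Reads were spread unevenly over the members. The 12 genes with the most reads at P17 held 49.1% of all member reads at P12 and 48.4% at P17, while 138 members stayed under 20 CPM at both stages. Zfp521 and Zfp536 alone held 19.8% and 15.4%. After these came Zfp827, which recruits chromatin remodellers to telomeres, with 1879 and 4940 reads, or 140 and 185 CPM (log2 ratio 0.41, interval 0.33 to 0.49). Zfp618, whose protein binds hydroxymethylated DNA, had 1967 and 3919 reads, or 146 and 147 CPM (0.01), and Zfp704 had 1895 and 3768 reads, or 141 and 141 CPM (0.01). Zfp831 had 1418 and 3203 reads, or 105 and 120 CPM (0.19, interval 0.10 to 0.28). Counts were not divided by gene length, since no mm9 gene lengths were used, so a long gene gathers more reads at the same density and levels of different genes are not compared.

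**Figure D2:**
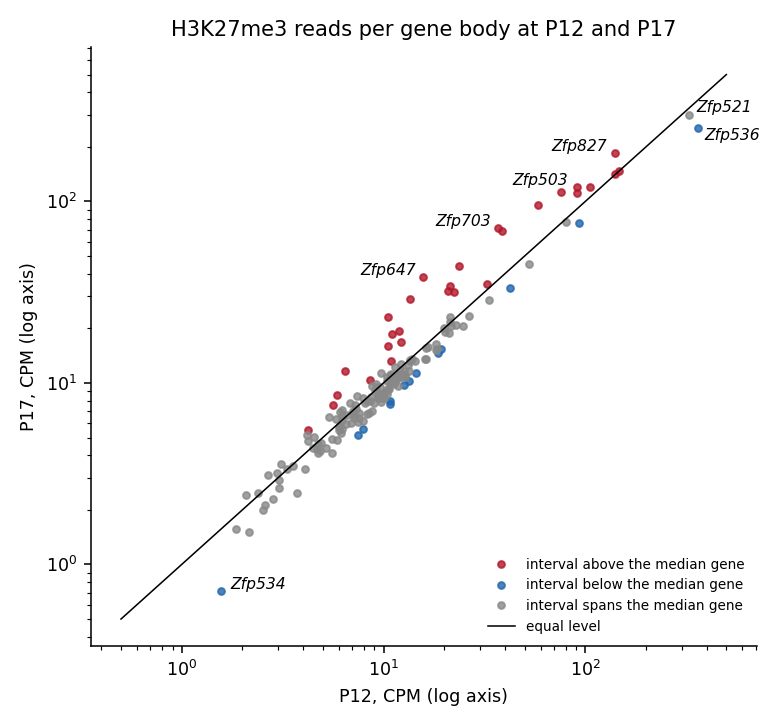
H3K27me3 reads per gene body in CPM at P12 (horizontal, log axis) and P17 (vertical, log axis) for the 172 genes; the line marks equal levels, and colours show whether the counting interval of the ratio lies above, below or over the median gene. Zfp521 and Zfp536 lie at the upper right, and Zfp534, at 1.56 and 0.713 CPM, at the lower left.

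Grouped by the mean level of both stages, members of at least 25 CPM had the higher median ratio, without a steady rise over finer classes. Medians were -0.06 under 5 CPM, -0.13 from 5 to 10 and -0.11 from 10 to 25. They were 0.49 from 25 to 50 (9 members) and 0.25 at 50 or more (14 members). The 23 members with a mean of at least 25 CPM had a median log2 ratio of 0.30, with 16 above (69.6%) and 3 below (13.0%) the median gene. All 7830 genes of such a level had a median of -0.06, with 2770 above (35.4%) and 1298 below (16.6%). The other 149 members had a median of -0.12, against -0.09 over all 13978 genes under that level. Of these members 12 were above (8.05%) and 10 below (6.71%), against 13.2% and 6.42% of those genes. The mean includes P17, so a gene that is high at P17 enters the upper group more easily. With the split on the P12 level alone, 19 members reached 25 CPM. Their median was 0.01, against -0.08 over the 7701 genes of that level. Of the 19, 11 were above (57.9%) and 3 below (15.8%), against 31.5% and 17.8% of the 7701. The split by level was chosen after the values were seen.

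Zinc finger genes lie next to each other in runs, and 72 of the members did so. A run was at least 4 genes named Zfp, Zscan or Zkscan, in the gene order of GRCm38, with at most 2 other protein-coding genes between neighbours. Of the 172 members, all matched in the RefSeq table (3 of them by an older symbol), 72 lay in 18 runs and 100 outside them. The median log2 ratio was -0.14 inside runs and -0.06 outside. Inside, 9 of 72 had intervals above the median gene (12.5%) and 7 below (9.72%), and 0 were over 2-fold higher. Outside, 19 of 100 were above and 6 below, and all 3 members over 2-fold higher were there. Over all genes 21.2% were above, 10.1% below and 2.57% over 2-fold higher. The last share amounts to few genes in groups of 72 and 100. Median reads at P12 were 126.5 inside and 145 outside. The part of read depth in these counts was not tested. Zinc finger genes in runs can be near-identical copies, and how reads that map to several copies were treated is not given in the sources used here.

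Values within the runs with 7 or more members covered both sides of the median gene. In the run on chromosome 13 from Zfp712 to Zfp273, 7 members ranged from Zfp712 at -0.40 to Zfp748 at 0.00, with 0 above and 2 below the median gene. In the chromosome 17 run from Zfp677 to Zfp946, 10 members ranged from Zfp943 at -0.36 to Zfp947 at 0.19, with 0 above and 1 below. The other run on chromosome 17, from Zfp871 to Zfp563, had 7 members from Zfp763 at -0.12 to Zfp952 at 0.41, with 2 above and 0 below. The shares over all genes, 21.2% above and 10.1% below, amount to few genes in runs of 7 to 10 members.

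Several runs with fewer members held genes far apart in ratio. On chromosome 7, Zfp579 at 0.90 (317 and 1172 reads) shares a run of 5 with Zfp580 at -0.25 (217 and 361 reads). Zfp865 of the same run, named after its value was seen, stood at 0.62 (281 and 858 reads, interval 0.43 to 0.82), so 2 of the 5 lie above the median gene. A second run of 5 on that chromosome ranged from Zfp768 at -0.58 to Zfp764 at 0.55. Zfp764 overlaps E430018J23Rik in GRCm38, so its 79 and 229 reads may be shared. On chromosome 6, Zfp777 stood at 0.68 (288 and 913 reads), while Zfp956 in the same run stood at -0.19. The run of 5 on chromosome 8 had a narrower range, with 0 genes above or below the median gene. It went from Zfp868 at -0.31 (interval -0.66 to 0.04) to Zfp869 at 0.12 (-0.27 to 0.53), and these intervals overlap. On chromosome 9, Zfp872 at 0.84 lies beside Zfp809 at -0.17. Zfp599 of that run, also named after its value was seen, stood at 0.60 (142 and 427 reads, interval 0.33 to 0.89), and it overlaps Zfp809. The chromosome 4 run holds 16 zinc finger genes, of which only Zfp534, Zfp600 and Zfp933 were measured. Their median, -0.51, is the value of Zfp600 and the lowest of the 18 runs, some of which have 1 member. Zfp534 had 21 and 19 reads, and the interval of Zfp933 (-0.66 to 0.02) includes the median gene.

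**Figure D3:**
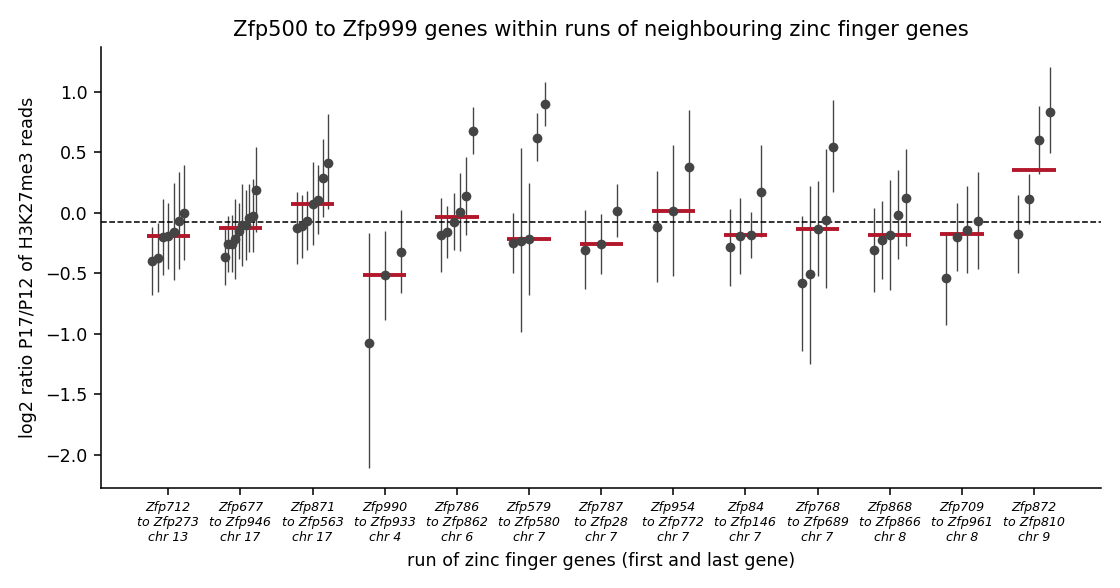
Log2 ratio P17/P12 of H3K27me3 reads for members in each run of zinc finger genes with 3 or more members; points are genes with 95% counting intervals, red bars are run medians and the dashed line is the median of all genes. The chromosome 4 run has the lowest median, -0.51, and the chromosome 9 run from Zfp872 to Zfp810 the highest, 0.36.

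Median ratios of members with many and with few promoter CpG were close when split in 2 groups and further apart in 3. RefSeq promoter windows of 300 bases (250 before and 50 after the start, GRCm38.p6) were found for 141 members, and each gene was given the highest CpG count among its windows. The count ran from 2 to 59 with a median of 15, against 16 over 15791 measured genes. The 106 members above the median of all promoters, 8 CpG, had a median log2 ratio of -0.11, and the 35 at or below it had -0.13. Over all genes these medians were -0.08 and -0.08. Across genes, Spearman's rho between CpG count and ratio was 0.08 for the 141 members and 0.01 for all 15791 genes, a description over genes that share the same 2 libraries. In the first group 15 members were above (14.2%) and 8 below the median gene (7.55%), against 24.0% and 11.4% of all genes in that group. In the second 3 were above (8.57%) and 4 below (11.4%), against 13.3% and 7.76% of all genes. With 3 classes of CpG count in place of 2, the median was -0.07 for the 60 members of the highest class, -0.13 for the 73 in the middle and -0.17 for the 8 of the lowest. Over all genes the same classes gave -0.09, -0.05 and -0.10. The 31 members without a window, among them Zfp647 and Zfp703, had a median of 0.05. Of these 31, 10 were above (32.3%) and 1 below (3.23%), against 21.2% and 10.1% of all genes.

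**Figure D4:**
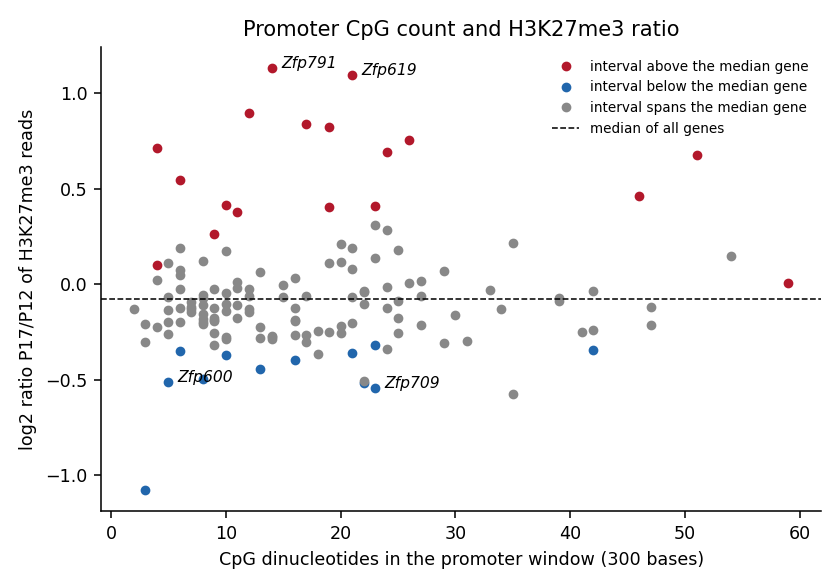
CpG dinucleotides in the 300-base promoter window (horizontal axis) and log2 ratio P17/P12 of H3K27me3 reads (vertical axis) for the 141 members with a window; colours show whether the counting interval lies above, below or over the median gene, which is the dashed line. Ratios above and below the median gene occur on both sides of the split at 8 CpG, as for Zfp710 (4 CpG, 0.72), Zfp600 (5 CpG, -0.51), Zfp791 (14 CpG, 1.13) and Zfp709 (23 CpG, -0.54).

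Short promoter motifs were counted on both strands in the same windows, each by itself and regardless of overlap with another. GGGCGG, the GC box, occurred in 51.1% of the 141 members with a window and in 38.2% of 27025 symbols with windows, which include non-coding genes. CCAAT occurred in 51.8% and 41.1%, and TATAAA in 7.09% and 15.7%. AAGATGGCG, the core of the YY1 motif, was found in 3 members (2.13%, against 1.64%). The symbols with windows had a median of 8 CpG, against 15 for the members and 16 for measured genes. The part of this difference in the motif shares was not tested. Members with GGGCGG had a median log2 ratio of -0.11 and those without it -0.12. A match is a run of letters in the window and not a bound site.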

How the data were processed

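Only the gene-body values of the P12 and P17 H3K27me3 samples entered the analysis. These are raw read counts per gene symbol, deposited by the authors and made with multiBamCov per the file names, after use of Bowtie, SAMtools and HTSeq and the build mm9 per the submitters' processing notes. Tool versions, the annotation, the treatment of reads that map to several places and any filter are not stated in the labels or headers.

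Of 23530 entries, 146 symbols occurred several times; their reads count towards the totals, but no ratio was computed for them. Counts were scaled to the file total. Log2 ratios were taken after adding 1 read, in proportion to library size, where both libraries together had 20 reads or more, with exact conditional (Clopper-Pearson) 95% intervals (Python 3.11.15, scipy 1.17.1). Intervals cover counting error only. The calculation was tested on simulated counts that hold counting error only, so differences between replicates or precipitations were not covered. TMM factors came from edgeR 4.0.16. Groups came from the sample titles.

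Named genes were, of members with at least 50 reads, the 8 highest and 8 lowest ratios and the 8 with most P17 reads, the role lists, and the extremes of each run with 5 or more members. Members and lists were chosen with earlier results of these data known. GRCm38 tables gave names, gene order, overlaps and promoter windows only. Runs were defined by gene names in place of finger counts, since protein sequences were not used here. Alternatives were TMM and median-of-ratios factors, totals without repeated symbols, minimums of 1 or 100 reads, a pseudocount of 5, 0 or 5 gap genes in runs, and 3 promoter classes in place of 2. The level split was added later.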

Additional observations from a re-analysis of the deposited data

How the results depend on the processing

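Scaling shifted all genes alike. TMM and median-of-ratios factors raised the median log2 ratio of all genes by 0.07 and 0.08. They moved the members' median to -0.017 and -0.014, the median inside runs to -0.062 and -0.058, and the median outside runs across 0 to 0.014 and 0.017. Members above the promoter CpG median moved to -0.032 and -0.029 and those at or below it to -0.053 and -0.049. The difference between members inside and outside runs, -0.076, was -0.076 with both factors, -0.063 with at least 100 reads, -0.049 with 0 gap genes in runs (56 members inside) and -0.065 with 5 (88 inside). Zfp711, Zfp748 and Zfp932 took values above 0 with both factors, and Zfp704 went from 0.0057 to -0.0027 without symbols present more than once. The count of members over 2-fold lower was 0 with at least 100 reads and 0 with a pseudocount of 5, where Zfp534, on 21 and 19 reads, left the count. The 3 members over 2-fold higher remained in that count under the 6 alternatives of scaling, minimum and pseudocount, and with both factors Zfp703 joined them (1.02 with TMM factors), which makes 4. Of 280 recomputed values of named genes, 275 stayed inside their counting interval, 5 moved out of it and 0 reversed, where reversed means a change of sign in a value whose interval left out a ratio of 1. The 7 sign changes above were in values whose interval included it. Splitting on the P12 level alone, chosen after seeing the data, lowered the median of the upper group from 0.30 to 0.01. Replicates could not be left out, since each stage has 1 file, and the split of members by a KRAB stretch was not run, since protein sequences were not used here. No paired analysis was possible because each stage has a single file. Depth limits single genes: the median interval of a member is 0.63 log2 units wide.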

Other observations

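Genes listed as KRAB co-repressor machinery, and the zinc finger gene Zfp57 listed with them, lay near or under the median gene. The 13 listed genes had a median log2 ratio of -0.16, with Zfp57 at -0.14 (156 and 280 reads). They ran from Cbx1, a heterochromatin protein gene, at -0.35 (164 and 255 reads) to the H3K9 methyltransferase gene Setdb1 at -0.04 (280 and 538 reads). None of the 13 intervals lay above the median gene, and 1 lay below it (7.69%), where 21.2% and 10.1% of all genes did. The 1 below was that of the chromatin remodeller gene Smarcad1 at -0.32 (568 and 904 reads). In a list of 13 the shares over all genes amount to few genes. Trim28, the scaffold that KRAB domains bind, had 60 and 109 reads and stood at -0.12.

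Medians of other zinc finger families ran from -0.15 to -0.07. The 160 other numbered Zfp genes, which include Zfp57 of the list above, had a median of -0.11. Of them 20 were above the median gene (12.5%) and 8 below (5%), against 21.2% and 10.1% of all genes. They ran from Zfp319 at -0.64 to the mRNA-decay gene Zfp36 at 2.54. The 25 Zscan and Zkscan genes had a median of -0.15, with 2 above (8%) and 3 below (12%). They ran from Zscan4e at -1.28, on 12 and 9 reads, to Zkscan16 at 1.20, on 163 and 742 reads. The 41 Zbtb genes, whose proteins pair zinc fingers with a BTB domain, had a median of -0.07, with 11 above (26.8%) and 5 below (12.2%). Zbtb12 was highest at 1.36 on 41 and 210 reads. Differences between these families were not tested.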
